A study of Homo sapiens with 6 samples.

Results

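Homologous recombination rebuilds a broken chromosome from its sister copy, and the Fanconi anaemia pathway removes crosslinks that hold both DNA strands together and hands the resulting break to recombination. Expression of 9 genes of these pathways, BRCA1, BRCA2, BARD1, RAD51AP1, RAD54L, FANCA, FANCG, FANCI and XRCC2, was examined on 6 single-colour 3′ expression arrays. Every probe set whose single gene symbol in the platform annotation was one of these names was taken. That gave 9 probe sets for 7 of the 9 genes among 22215 probe sets tested, with 2 each for BRCA1 and FANCI. BRCA2 and FANCA were the single symbol of no probe set in the annotation used here and were not analysed here. The cells were labelled as HSC2, a human line from an oral squamous carcinoma, stably transfected either with a full-length wild-type MALT1 cDNA (3 arrays) or with the vector alone, called mock (3 arrays). MALT1 is a paracaspase of NF-kappaB signalling, and the study looked for genes that respond to it. The promoter of the construct and the number of clones behind each line are not given in the sources used here. All cells grew in DMEM with serum and antibiotics, and the labels do not say whether replicates were separate cultures. The p-values below therefore refer to the spread among the arrays of a group, and that spread may be technical.

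In recombination, the ends of a break are cut back to single strands, BRCA1 with its partner BARD1 promotes this step, and the single strand then pairs with the sister duplex. RAD51AP1 and the motor protein RAD54L help the strand to invade the sister, and XRCC2 acts in the same strand exchange step. In the Fanconi pathway, FANCG is part of the core complex that attaches ubiquitin to FANCI and its partner FANCD2 at a crosslink. Many of these genes are transcribed mainly in S and G2 phase through E2F factors and the DREAM complex, so their messages are usually read beside those of cell cycle genes.

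The promoters of the 3 genes that passed the test are shown because E2F factors and the CCAAT-binding factor NF-Y are the regulators best known for this class of gene. Each is the 250 bases before the start of the gene in RefSeq (build GRCh38.p14), read 5′ to 3′ on the gene's strand, and the last base lies next to the start. Capitals mark matches, on either strand, to an E2F-type word (TTCCCGC, the word TTCGCGC, the word TTGCCGC or the word TTGGCGC) or to CCAAT. RAD51AP1 is on the plus strand at chr12:4538640-4538889, FANCG on the minus strand at chr9:35079943-35080192 and BARD1 on the minus strand at chr2:214809684-214809933.
RAD51AP1: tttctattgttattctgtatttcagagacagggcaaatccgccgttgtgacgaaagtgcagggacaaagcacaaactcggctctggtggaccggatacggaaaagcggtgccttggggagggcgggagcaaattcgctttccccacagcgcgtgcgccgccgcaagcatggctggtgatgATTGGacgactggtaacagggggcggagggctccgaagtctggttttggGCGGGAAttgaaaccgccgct
FANCG: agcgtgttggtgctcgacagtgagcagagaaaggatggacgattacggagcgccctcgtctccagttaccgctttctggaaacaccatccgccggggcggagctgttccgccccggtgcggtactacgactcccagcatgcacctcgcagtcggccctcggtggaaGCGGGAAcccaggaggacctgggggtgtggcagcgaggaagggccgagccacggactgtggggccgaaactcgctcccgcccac
BARD1: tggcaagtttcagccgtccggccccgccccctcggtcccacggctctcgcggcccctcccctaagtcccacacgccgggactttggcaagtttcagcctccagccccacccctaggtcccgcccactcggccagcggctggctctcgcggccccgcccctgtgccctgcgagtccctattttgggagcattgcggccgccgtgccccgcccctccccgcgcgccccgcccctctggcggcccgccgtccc
The windows of RAD51AP1 and FANCG, the genes that were lower on the MALT1-labelled arrays, each held 1 E2F-type word, GCGGGAA on the gene's strand. It lay 21 to 15 bases before the start of RAD51AP1 and 84 to 78 bases before that of FANCG. RAD51AP1 also held 1 CCAAT word on the opposite strand, 70 to 66 bases before its start. The BARD1 window held neither word, and 75.2% of its bases were G or C, against 57.2% in the RAD51AP1 window and 66.0% in the FANCG window.

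Windows were found for 6 of the 7 measured genes, 8 windows in all because BRCA1 and RAD54L each have 2 starts in the table. An E2F-type word was present for 4 genes (BRCA1, RAD51AP1, RAD54L and FANCG), in 5 of the 8 windows, against 10.9% of 35116 promoter windows of the same length. CCAAT was present for 3 genes (BRCA1, RAD51AP1 and RAD54L), in 4 of the 8 windows, against 32.0%. The cell cycle homology words TTTGAA and also TTCGAA were in 0 of the 8 windows (14.3% of all), and the NF-kappaB consensus was in 0 of the 8 (9.96% of all). No match overlapped a match of another motif. The 2 RAD54L windows overlap and share their E2F-type word. BRCA1 and RAD54L hold this word and, as given below, did not pass the expression test, so the word was present both in genes that were lower and in genes that did not pass.

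The MALT1 transcript probe sets and the lineage markers did not follow the labels. All 3 MALT1 transcript probe sets read lower on every MALT1-labelled array than on every mock-labelled array, as did 23.3% of all probe sets. Of the 3, 2 passed the limma test across all probe sets, which called 17.0% of them lower. The clearest read 120 ± 11.3 against 254 ± 24.98 (mean ± SD, n = 3 each). Whether the MALT1 probe sets detect transcript made from the cDNA construct was not tested. The groups are therefore named by their labels throughout, and each difference is between arrays so labelled. Marker counts below are of calls by the same test, which called 21.1% of 11963 genes higher and 19.2% lower (brightest probe set of each). Of 7 measured squamous markers, 7 were lower on the MALT1-labelled arrays (geometric mean signal 816 to 871 against 3531 to 3628). Of 10 luminal epithelium markers, 10 were higher (4516 to 4773 against 81.4 to 93.4), and 4 of these were at or below the dim level of 17.6 on the mock-labelled arrays. KRT18 read 18654 ± 3088 against 6963 ± 505, and TFF1, which was dim on the mock-labelled arrays, was at least 878-fold higher. That dim level is the highest signal of a bacterial trp control. Of 7 fibroblast markers 0 were higher and 1 lower, and of 4 immune markers 1 was higher and 0 lower. Both lists were near the dim level (fibroblast geometric means 11.5 to 24.3 against 15.9 to 23.5, immune 9.88 to 19.6 against 5.37 to 6.29). Whether the labels of the groups were exchanged, or whether the MALT1-labelled arrays hold cells other than HSC2, was not tested, nor was the part of these differences in the results for the repair genes. Median signals of whole arrays ran from 69.3 to 79.0 in the group labelled MALT1, against 64.1 to 68.2 for mock. Over all probe sets the median log2 difference was 0.08, and −0.05 after each array was centred on its median.

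RAD51AP1 and FANCG were lower and BARD1 was slightly higher on the MALT1-labelled arrays, while BRCA1, RAD54L, FANCI and XRCC2 did not pass the test. Of the 9 probe sets, 2 fell and 1 rose at an adjusted p under 0.05 (limma, Benjamini-Hochberg over all 22215 probe sets), which is 33.3%, beside 35.6% of all probe sets called in either direction. The count of called members is thus close to the share over all probe sets, dim ones included. A fit on only the probe sets at or above the median signal, which held all 9, called 3670 higher and 3868 lower. The fit on all 22215 called 4130 and 3787. The members stayed at 1 higher and 2 lower, so their share called was below that of these brighter probe sets. All differences are log2(signal + 1) on the MALT1-labelled arrays minus the mock-labelled arrays. The median over the 9 probe sets was −0.09. Only 1 of the 9 differed by at least 1 on this scale, whereas 26.3% of all probe sets did. Every member probe set was above the dim level on all 6 arrays, with signals from 102 to 4469.5.

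**Figure D1:**
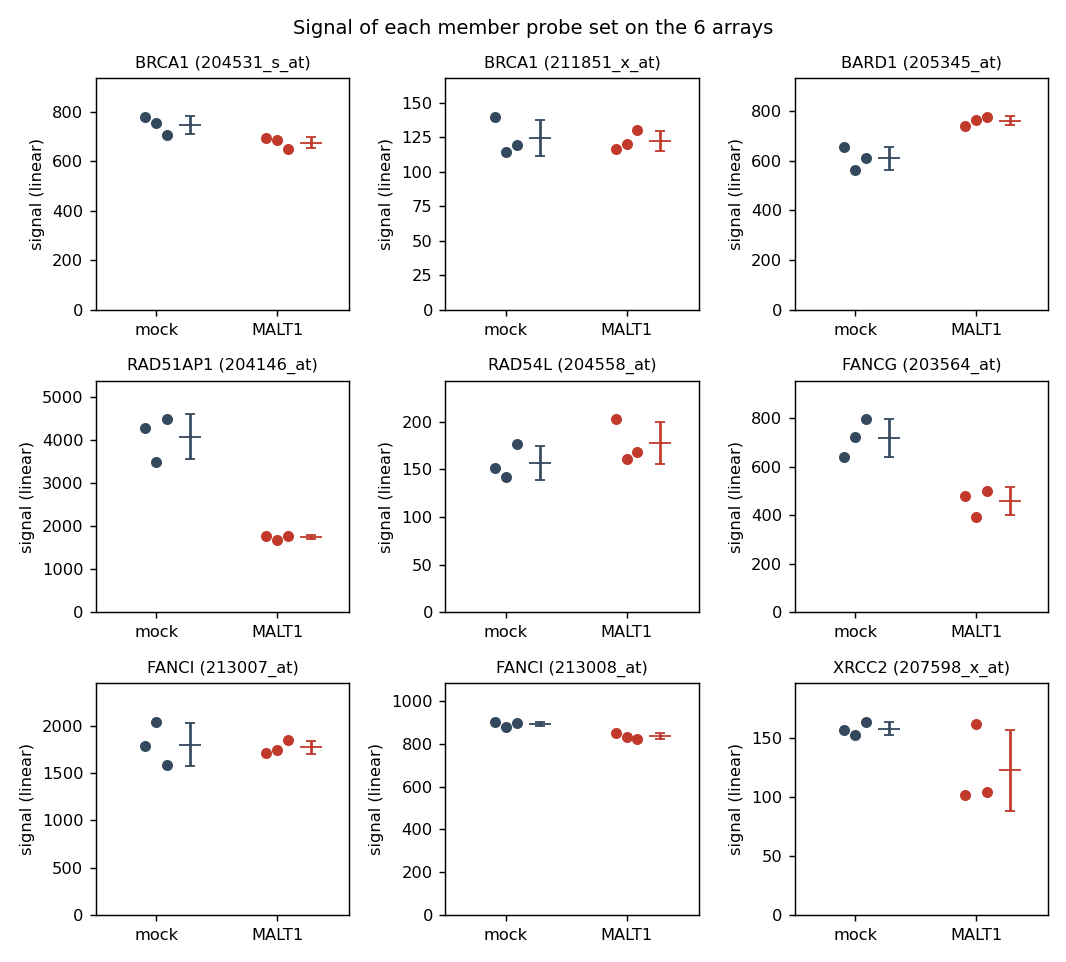
Linear signal of the 9 probe sets on each array, with dots for single arrays (mock dark, MALT1 red, replicates 1 to 3 from left to right) and a bar for the mean ± SD (n = 3). RAD51AP1 reads 1689 to 1771 on the MALT1-labelled arrays, below its 3477 to 4469.5 on the mock-labelled arrays, while the 2 groups overlap for 4 probe sets, among them XRCC2 and RAD54L.

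RAD51AP1, which helps the broken strand to pair with the sister duplex, changed most among the members. Its probe set (204146_at) read 1771, 1689 and 1769 on the MALT1-labelled arrays, and 4272, 3477 and 4469.5 on the mock-labelled arrays. The groups did not overlap, and the MALT1-labelled arrays lay close together while mock replicate 2 was the lowest of its group. The mean was 1743 ± 46.8 against 4073 ± 525 (log2 difference −1.22 ± 0.12 SE, adjusted p = 0.0015, limma), so the level was 43.0% of that on the mock arrays (95% interval 34.6% to 53.6%). Of all probe sets, 8.44% fell at least as far. The difference passed in each of 11 alternative analyses, with values from −1.34 to −1.14 and adjusted p from 5.2e-05 to 0.0157.

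FANCG, a scaffold subunit of the Fanconi core complex, fell less. Its probe set (203564_at) read 482, 395 and 502 on the MALT1-labelled arrays, and 639, 726 and 796 on the mock-labelled arrays. The groups did not overlap, although the spread within each was wide for the size of the difference. The mean was 460.0 ± 56.7 against 720.2 ± 78.5 (log2 difference −0.65 ± 0.14 SE, adjusted p = 0.0206, limma), or 63.8% of the mock level (95% interval 49.6% to 82.2%). The call was lost without MALT1 replicate 1 (adjusted p = 0.0533), MALT1 replicate 2 (adjusted p = 0.0525), mock replicate 2 (adjusted p = 0.0699) or mock replicate 3 (adjusted p = 0.0636), while the direction was kept. The count of members that fell was then 1, except without MALT1 replicate 2, where XRCC2 took the place of FANCG.

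BRCA1, a ubiquitin ligase and scaffold of break repair, was measured by 2 probe sets, and neither passed. The brighter (204531_s_at) read 693, 686 and 649 on the MALT1-labelled arrays and 779.5, 754 and 706 on the mock-labelled arrays. All 3 MALT1-labelled arrays lay below all 3 mock arrays, but by less than the test required (log2 difference −0.14 ± 0.09 SE, adjusted p = 0.277, limma), and the 95% interval ran from 77.8% to 105% of the mock level. The x_at probe set (211851_x_at), a type that can bind several transcripts, read 116, 120.4 and 130.01 against 139.7, 115 and 119. Here the groups overlapped, with a log2 difference of −0.02 ± 0.11 SE (adjusted p = 0.902, limma) and an interval from 80.6% to 120.1%. A fall to the level seen for RAD51AP1 lies outside both intervals.

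BARD1, the partner that BRCA1 needs for a stable ligase, went the other way. Its probe set (205345_at) read 739.7, 764 and 775 on the MALT1-labelled arrays and 653, 563 and 611 on the mock-labelled arrays, without overlap. The mean was 759.5 ± 18.2 against 609 ± 45.0 (log2 difference 0.32 ± 0.09 SE, adjusted p = 0.049, limma), or 125% of the mock level (95% interval 106% to 147%). This is the smallest called change among the members, and 37.2% of all probe sets rose at least as far. The call was lost after median centring (log2 difference 0.19, adjusted p = 0.264), which leaves 0 members higher and 2 lower, and in each of the 6 analyses that left out 1 array (adjusted p from 0.0641 to 0.145).

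The partners were also compared within each array, which removes any factor common to an array. The log2 signal of BARD1 minus that of the brighter BRCA1 probe set was −0.29 ± 0.11 on the mock arrays, and 0.17 ± 0.08 on the MALT1-labelled arrays (mean ± SD, n = 3 each). Every MALT1-labelled array lay above every mock array (exact permutation test, two-sided p = 0.1, the smallest that 3 against 3 allows; adjusted over 5 such comparisons p = 0.125). The ratio of the pair differed by 0.46 on the log2 scale, which does not show which partner moved. BARD1 alone already read higher, and BRCA1 alone lower, on every MALT1-labelled array. The separation of their ratio was therefore fixed by those values and is no added support.

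FANCI, which with FANCD2 forms the clamp that the core complex marks with ubiquitin, showed 2 similar small differences. The brighter probe set (213007_at) read 1716, 1743 and 1853 against 1781, 2039 and 1582, with overlap and a log2 difference of −0.02 ± 0.12 SE (adjusted p = 0.934, limma). The other (213008_at) read 853, 834 and 823 against 903, 881 and 896, without overlap but with a log2 difference of only −0.09 ± 0.08 SE (adjusted p = 0.408, limma). Their 95% intervals ran from 79.7% to 123% and from 82.0% to 107% of the mock level. The tight second probe set had an SD on the log2 scale of 0.03 and 0.02 in the groups, the smallest spread among the members.

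RAD54L, a motor protein that drives the broken strand into the sister duplex, read 202, 161 and 169 on the MALT1-labelled arrays and 152, 142 and 176 on the mock-labelled arrays (204558_at). The groups overlapped, and the log2 difference of 0.18 ± 0.14 SE did not pass (adjusted p = 0.399, limma; 95% interval 88.4% to 145% of the mock level). XRCC2, a strand exchange factor, read 102, 162 and 104 against 157, 152 and 163 (207598_x_at). Its only probe set here is of the x_at type, which can bind several transcripts. Of the MALT1-labelled arrays, replicate 2 lay among the mock arrays and the other two well below them. The log2 difference was −0.39 ± 0.21 SE (adjusted p = 0.213, limma; 95% interval 53.0% to 109%). Without MALT1 replicate 2 it was −0.61 and passed (adjusted p = 0.0169).

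**Figure D2:**
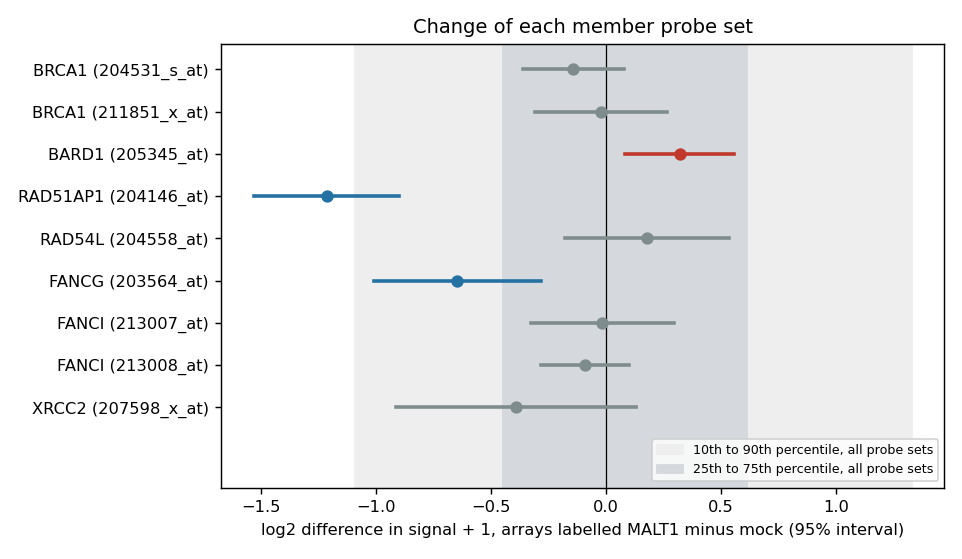
Log2 difference of each member probe set (dot) with its 95% interval (line), blue for lower, red for higher and grey for not past an adjusted p of 0.05. The shaded bands hold the central share of all probe sets, from −1.09 to 1.33 for the wide band and −0.45 to 0.61 for the narrow one. RAD51AP1 at −1.22 is the only member outside the wide band.

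Without overlap between the groups, 5 of the 9 probe sets (55.6%) separated, 4 lower and 1 higher, beside 49.7% of all probe sets in either direction (26.4% higher and 23.3% lower). The 5 were those of RAD51AP1, FANCG and BARD1 with the brighter BRCA1 and the dimmer FANCI probe set.

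The cell cycle genes give the setting in which these messages are usually read. Of 20 mitotic genes, 19 fell, 0 rose and 1 did not pass, with a median log2 difference of −0.59. Among 11963 genes by their brightest probe set, 19.2% were lower and 21.1% higher. Whichever array was left out, 17 to 18 of the mitotic genes fell and 0 rose. MKI67, the proliferation antigen, read 763 ± 49.7 against 1679 ± 40.01 (log2 difference −1.14 ± 0.09 SE) and the spindle factor TPX2 1135 ± 40.5 against 2524 ± 61.4 (−1.15 ± 0.08 SE). Of 24 G1/S and replication genes, 8 rose, 4 fell and 12 did not pass, with a median of 0.02. The ribonucleotide reductase subunit RRM1 fell from 9714 ± 212 to 4725 ± 243, and the helicase subunit MCM3 rose from 1216 ± 31.9 to 2142 ± 110.1. FANCG and RAD51AP1 thus fell on arrays on which mitotic genes fell, and the part of that in their change was not tested. These are whole-culture measurements, so fewer cells in a phase and less RNA per cell cannot be told apart.

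Set against the mean log2 signal of the 20 mitotic genes on the same array, RAD51AP1 was 0.30 ± 0.07 on the MALT1-labelled arrays and 0.77 ± 0.19 on the mock-labelled arrays. It stood 0.47 lower against that mean in the group labelled MALT1 than in the mock group, without overlap (exact permutation test, two-sided p = 0.1, adjusted p = 0.125). FANCG stood at −1.63 ± 0.21 and −1.73 ± 0.19, with overlapping groups and a difference of 0.10 (exact permutation test, two-sided p = 0.6, adjusted p = 0.6). FANCI stood 0.73 higher against the mitotic mean, at 0.32 ± 0.09 beside −0.41 ± 0.18 on the mock arrays, without overlap (exact permutation test, two-sided p = 0.1, adjusted p = 0.125). The log2 signal of RAD51AP1 minus that of FANCI was −0.02 ± 0.06 beside 1.18 ± 0.37 on the mock arrays, again without overlap (exact permutation test, two-sided p = 0.1, adjusted p = 0.125). With 3 arrays a group none of these can fall below 0.1. The separations without overlap followed from the differences of the single quantities on these same arrays. They restate those differences and are no added support.

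**Figure D3:**
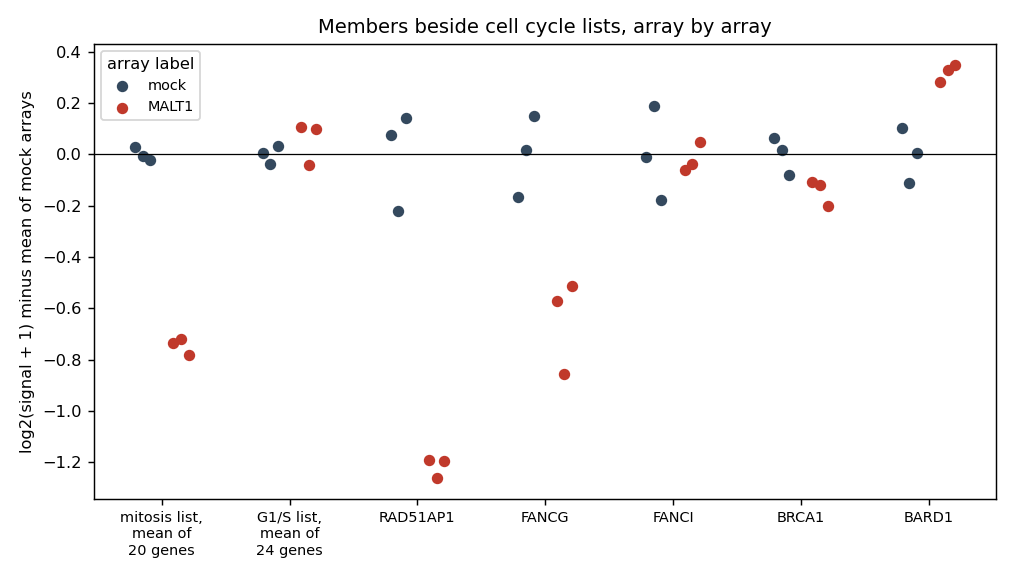
Log2(signal + 1) on each array minus the mean of the 3 mock arrays, for the means of the mitotic and G1/S lists and for 5 members (brightest probe set). Mock arrays are dark and MALT1-labelled arrays red. The mitotic mean lies 0.75 lower on the MALT1-labelled arrays and the G1/S mean 0.06 higher, with RAD51AP1 below the first and FANCI and BRCA1 near the second.

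The regulators of this gene class moved both ways. Of 16 measured E2F and DREAM genes, 6 rose, 4 fell and 6 did not pass, with a median log2 difference of 0.00. That is 62.5% called, beside 40.4% of all genes (21.1% higher and 19.2% lower). Whichever array was left out, 4 to 6 rose and 4 fell. The repressor E2F6 rose from 306 ± 19.3 to 1061 ± 29.3 (log2 difference 1.79 ± 0.09 SE) and the chromatin subunit RBBP4 from 1531 ± 36.4 to 2988 ± 139. TFDP1, the dimer partner of E2F proteins, fell from 3588 ± 179 to 1845 ± 68.7, and the pocket protein RBL1 from 785 ± 137 to 238 ± 28.1 (−1.71 ± 0.17 SE).

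The largest changes in the rest of the recombination and Fanconi machinery exceeded those of the members, in a list that was also longer. Of 55 other genes measured, 10 rose, 13 fell and 32 did not pass, so 41.8% were called, beside 40.4% of all 11963 genes. Without MALT1 replicate 1, 8 in place of 13 fell. Their median log2 difference was −0.03, against 0.08 over all genes. FANCD2 was the single symbol of no probe set in the annotation used here. PALB2, which links BRCA1 to BRCA2, read 542 ± 30.5 against 575 ± 29.7 and did not pass (adjusted p = 0.537).

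Among 17 measured genes of break signalling and end resection, 6 fell, 2 rose and 9 did not pass (47.1% called, beside 19.2% lower and 21.1% higher among all genes). Their median log2 difference was −0.05, and 1 rose without MALT1 replicate 1, MALT1 replicate 2 or mock replicate 2. MRE11, the nuclease that starts resection, read 302, 266 and 302 on the MALT1-labelled arrays and 1047, 894 and 872 on the mock-labelled arrays. That is a log2 difference of −1.69 ± 0.12 SE (adjusted p = 0.00042, limma), but only on the brighter of 2 probe sets. The other read 11.4 against 14.8 on average and did not pass. The kinase ATM, which senses double-strand breaks, fell from 314 ± 15.7 to 113 ± 18.6 (−1.48 ± 0.15 SE), lower in all 3 of its probe sets. ATR, its counterpart at single-stranded DNA, fell from 2129 ± 172 to 1102 ± 22.05, lower in both of its probe sets. BABAM2, a subunit of the BRCA1-A complex that restrains BRCA1 at breaks, rose from 430.2 ± 22.0 to 818 ± 36.8 and was higher in all 3 probe sets.

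Strand exchange genes held the largest rise of the pathway, that of BRIP1. Of 21 measured genes, 5 rose, 4 fell and 12 did not pass (42.9% called, beside 40.4% of all genes). The count that fell was 1 to 2 without MALT1 replicate 1 or 2 or any 1 mock array, and 3 rose without mock replicate 1 or 2. BRIP1, the helicase that binds BRCA1 and is also a Fanconi gene, read 532, 529 and 459 on the MALT1-labelled arrays and 53.0, 60.9 and 46.4 on the mock-labelled arrays. This is 9.36-fold higher (log2 difference 3.23 ± 0.14 SE, adjusted p = 0.00011, limma). RAD51C, which shares a complex with XRCC2, rose 4.31-fold from 1328 ± 43.4 to 5728 ± 140 (2.11 ± 0.08 SE) and was higher in both of its probe sets. The meiotic recombinase DMC1 rose from 23.8 ± 6.77 to 62.9 ± 12.1, at low signal. The helicase RECQL fell from 4515 ± 450.03 to 1935 ± 143, lower in all 4 probe sets.

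Of 17 measured Fanconi and crosslink genes, 3 rose, 3 fell and 11 did not pass (35.3% called, beside 40.4% of all genes). Whichever array was left out, 2 fell and 3 to 4 rose. The crosslink nuclease DCLRE1B rose from 102 ± 6.19 to 449 ± 19.97 (log2 difference 2.13 ± 0.09 SE) and CENPX, a histone-fold partner of FANCM, from 1204 ± 153 to 3868 ± 237. ERCC1, the partner of the XPF nuclease, fell from 426 ± 29.4 to 195 ± 10.1, lower in both of its probe sets. The ubiquitin ligase RFWD3 fell from 1224 ± 95.2 to 752 ± 28.8.

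**Figure D4:**
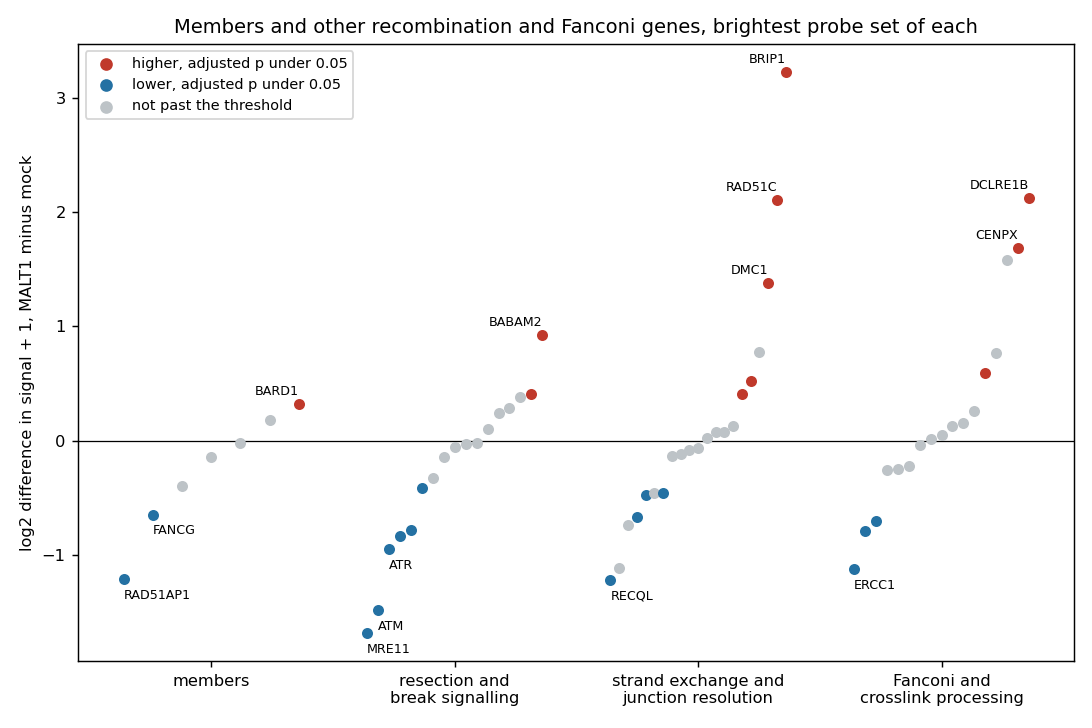
Log2 difference of the 7 measured members and of 55 other recombination and Fanconi genes, one dot a gene by its brightest probe set, in 4 columns by role and ordered by value within each. Red marks higher, blue lower and grey not past an adjusted p of 0.05. BRIP1 at 3.23 and RAD51C at 2.11 lie far above BARD1 at 0.32, and MRE11 at −1.69 below RAD51AP1 at −1.22.

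Other repair pathways on the same arrays were counted the same way, beside 21.1% higher and 19.2% lower among all genes (40.4% called). In end joining 1 gene rose and 4 fell of 12, and 0 rose whichever array was left out. Among those that fell were the kinase PRKDC, from 2701 ± 79.8 to 1650 ± 74.9, and the polymerase POLM, at least 2.41-fold lower because it was at or below the dim level on all MALT1-labelled arrays. In mismatch repair 2 rose and 0 fell of 4, MSH6 from 2974 ± 274 to 4023 ± 176 and PMS1 from 402 ± 25.2 to 672 ± 22.7. The call of MSH6 was lost without MALT1 replicate 1 or 2 or mock replicate 1 or 3 (adjusted p up to 0.0838, limma). In base excision repair 8 rose and 2 fell of 17, with the glycosylases MPG and UNG up by 2.37 and 1.29 on the log2 scale, and 1 fell without MALT1 replicate 1. In nucleotide excision repair 6 rose and 5 fell of 18, and 3 rose without MALT1 replicate 1 or 2 or any 1 mock array. XPC rose by 1.46 on the log2 scale and ERCC5 fell by 1.26.

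The genes outside all lists whose log2 signal followed the brighter BRCA1 probe set most closely over the 6 arrays were EOGT (Pearson r = 0.994), CHUK (r = 0.991), PPIP5K2 (r = 0.991), TSNAX (r = 0.99) and AIRIM (r = 0.989), out of 6604 candidates. This is a description over 6 arrays that share their scaling. The kinase subunit CHUK of NF-kappaB signalling read 858, 858 and 781 on the MALT1-labelled arrays and 1080, 981 and 908 on the mock-labelled arrays. None of these genes passed the test between the groups (CHUK adjusted p = 0.138, limma). They were chosen for their likeness to BRCA1 on the same arrays, so the likeness is a description and was not tested.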

How the data were processed

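Biotin-labelled copies of total RNA from 6 samples were run on Affymetrix arrays, one per sample, per the labels' protocols. The values deposited by the authors are linear intensity values, 1 per probe set. The software and genome build behind them are not given in the sources used here. Each array, judged by its values, had been scaled to a mean of about 500.2 after trimming. Of 22277 probe sets, 62 controls were left out. Of the 22215 tested, 19064 had 1 gene symbol, and 19052 of those were matched by gene ID to RefSeq (GRCh38.p14). The test was limma (version 3.58.1, R 4.3.3) on log2(signal + 1), which understates changes of dim genes, with group as the only term and Benjamini-Hochberg adjustment. The fit was run on simulated data with independent normal noise and planted changes, which checks the code and not the noise of these arrays. In lists, a gene took the probe set with the highest mean signal, and up to 4 genes a list were named by the smallest adjusted p. The members and lists were chosen with earlier results of these data known. Precision is limited by the 3 arrays per group. Alternatives covered scaling, pseudocount, low signals, the replicate number as a block, single arrays left out and averaged probe sets.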

Additional observations from a re-analysis of the deposited data

How the results depend on the processing

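RAD51AP1, ATM, MRE11, BRIP1, RAD51C, DCLRE1B and MKI67 kept their direction and passed under all 11 alternatives run for each. BARD1 passed in 3 of 11 and FANCG in 6 of 11. The replicate number could not be shown to pair the samples (correlations of the deviations of same-numbered arrays 0.06, −0.00 and 0.06). With it as a block, the members counted 0 higher and 1 lower and the other recombination and Fanconi genes 8 lower. After median centring 0 members were higher. With 1 array left out, the counts were 0 members higher, 1 to 2 lower, and 8 to 10 higher and 8 to 14 lower of the other pathway genes. The sign of 2 small differences turned. The x_at BRCA1 probe set reached 0.011 without MALT1 replicate 1 and 0.061 without mock replicate 1 (−0.080 to 0.061 with 1 array left out, −0.15 to 0.061 over all 11 alternatives). The brighter FANCI probe set reached 0.027 after quantile normalization, 0.0049 without MALT1 replicate 1 and 0.076 without mock replicate 2 (−0.11 to 0.076 with 1 array left out, −0.15 to 0.076 over all 11). The causes were not tested. Signal over background limited no member, but 3 arrays per group leave intervals as wide as 53.0% to 109% (XRCC2).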

Other observations

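The called genes of the wider pathway were also counted by chromosome, and the 2 chromosomes given here were chosen after the values were seen. Of 6 other recombination and Fanconi genes that RefSeq places on the chromosome of ATM, 5 fell (MRE11, ATM, CHEK1, H2AX and MUS81) and 0 rose, beside 19.2% lower among all genes. CHEK1, the kinase that acts after ATR, fell from 1398 ± 73.2 to 814 ± 71.1. Its other probe set read 763 against 1033 on average and did not pass (adjusted p = 0.0519, limma). The break-marking histone H2AX fell from 6318 ± 297 to 4733 ± 92.9, though in only 1 of its 4 probe sets. The call of H2AX was lost without MALT1 replicate 1 or 2 (adjusted p up to 0.0553, limma), and that of MUS81 without MALT1 replicate 1 or any 1 mock array (up to 0.108). The remaining gene, FANCF, read 335 ± 66.2 against 198 ± 49.8 and did not pass (adjusted p = 0.0625). Of 9 such genes on the chromosome of BRCA1, 3 rose (BRIP1, RAD51C and CENPX) and 0 fell, beside 21.1% higher among all genes, and the other 6 did not pass, as BRCA1 itself did not. That share called is below the 40.4% of all genes called in either direction. No test of position was made.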
